A study of Mus musculus with 4 samples.

Results

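The genes described here are known or likely targets of the transcription factor ATF4, together with ATF4 itself and stress genes induced beside it. The list held 32 genes, and a gene was kept where a row of the deposited table carried its symbol and no other. This gave 30 measured genes of 30142 genes in the table, and where a gene had several rows the brightest was used. Aars shared its row with another gene and Pycr1 was not matched, so neither was analysed here. The cells were 4T1, a mouse mammary carcinoma line that models triple-negative breast cancer, and RNA was measured on whole-transcript arrays as log2 values. There were 2 arrays of scramble control cells (NC) and 2 of cells in which MCT-1 was targeted by a short hairpin RNA (shMCT-1). All were grown in RPMI-1640 with 10% serum, 2 mM L-glutamine, penicillin and streptomycin. The shMCT-1 cells were clones kept for 2 weeks in puromycin at 0.5 µg/ml. Whether the NC cells received puromycin, and whether each array stands for its own clone, is not stated in the labels. The labels name the replicates as biological, but p-values measure only the spread between these samples.

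ATF4 is the main effector of the integrated stress response. Kinases that sense amino acid shortage, unfolded proteins, double-stranded RNA or heme loss phosphorylate eIF2alpha, which lowers general translation while letting Atf4 mRNA be translated through its upstream open reading frames. ATF4 then pairs with C/EBP-family proteins and switches on genes of amino acid synthesis, uptake and tRNA charging. When the stress persists, it also acts with CHOP (Ddit3) on genes of growth arrest and death. MCT-1, encoded by Mcts1, works with DENR in ribosome recycling and reinitiation, and in human cells this pair is known to be needed for full translation of ATF4. The arrays measured RNA, so the amount of ATF4 protein was not observed.

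Sequence at the gene starts is given first, because it shows which members carry there the letters of the motif by which ATF4 is known to act. A match of letters does not show binding, and an element outside the window or with other letters would be missed. The core of the C/EBP-ATF response element was searched as TGATGNAA, which reads TTNCATCA on the other strand, in the 250 bases before and 50 after each RefSeq start (build GRCm38.p6). RefSeq promoters were found for 26 of the 30 measured genes. The motif was present for 9 of these 26 (34.6%), against 4.51% of the 27025 genes with a promoter in the table. The members were picked as likely ATF4 targets, so this share is a description of the list. The 9 genes follow with the 8-base motif in capitals and 11 bases on either side, 5′ to 3′ on the strand of the gene. Slc7a11, which encodes the cystine transporter xCT, had the motif on both strands within a short stretch and is given with both windows.
Atf3 (chr1:191183425-191183454, minus strand): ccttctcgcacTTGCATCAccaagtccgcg
Nupr1 (chr7:126625562-126625591, minus strand): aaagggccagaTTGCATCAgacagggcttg
Trib3 (chr2:152344028-152344057, minus strand): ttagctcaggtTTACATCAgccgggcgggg
Chac1 (chr2:119351038-119351067, plus strand): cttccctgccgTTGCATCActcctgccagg
Asns (chr6:7693214-7693243, minus strand): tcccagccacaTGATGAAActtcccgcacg
Slc7a11 (chr3:50443661-50443690, minus strand): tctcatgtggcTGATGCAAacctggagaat
Slc7a11 (chr3:50443642-50443671, minus strand): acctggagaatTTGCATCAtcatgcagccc
Slc1a4 (chr11:20332699-20332728, minus strand): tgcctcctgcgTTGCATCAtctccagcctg
Gars (chr6:55037960-55037989, plus strand): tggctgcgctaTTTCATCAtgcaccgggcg
Vldlr (chr19:27216809-27216838, plus strand): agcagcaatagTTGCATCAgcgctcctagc

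Positions of the motif were counted from the RefSeq start, with the first transcribed base as 1. The motif began at -193 for Chac1, -110 for both Atf3 and Nupr1, -66 and -47 for Slc7a11, -30 for Gars, -23 for Asns, -4 for Slc1a4 and -200 for Vldlr, and for Trib3 it lay inside the transcript at 15. The 250 bases before the start are shown for Chac1 and Slc7a11, the members with the highest shMCT-1 level relative to NC replicate 2, and for Ddit3, in which these letters were not found in this window.
Chac1 (chr2:119350992-119351241, plus strand): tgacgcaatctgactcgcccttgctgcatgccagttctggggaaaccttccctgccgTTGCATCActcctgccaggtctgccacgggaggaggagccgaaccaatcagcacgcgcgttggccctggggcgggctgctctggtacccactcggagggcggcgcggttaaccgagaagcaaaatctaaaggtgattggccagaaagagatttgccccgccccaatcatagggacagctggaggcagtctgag
Slc7a11 (chr3:50443614-50443863, minus strand): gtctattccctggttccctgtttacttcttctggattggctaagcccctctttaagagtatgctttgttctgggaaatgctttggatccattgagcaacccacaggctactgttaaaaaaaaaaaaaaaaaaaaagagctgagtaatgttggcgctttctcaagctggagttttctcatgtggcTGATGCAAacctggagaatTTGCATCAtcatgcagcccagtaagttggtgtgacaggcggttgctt
Ddit3 (chr10:127290543-127290792, plus strand): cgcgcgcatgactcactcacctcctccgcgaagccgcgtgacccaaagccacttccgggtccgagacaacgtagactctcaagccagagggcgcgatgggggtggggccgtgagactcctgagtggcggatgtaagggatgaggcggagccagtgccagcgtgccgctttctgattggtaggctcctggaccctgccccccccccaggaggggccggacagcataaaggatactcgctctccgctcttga

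Before the members are described, the arrays themselves need a short account. Mcts1, the targeted transcript, was at 7.86 and 8.05 in NC and at 7.81 and 7.89 in shMCT-1, a log2 difference of -0.10 (SE 0.122, adjusted p = 0.945, limma). A lower level of the targeted RNA was thus not detected, and shMCT-1 in the results means the arrays labelled so. Of 8 mammary epithelial markers, Krt8 and Krt18 were between 15.74 and 16.73 on all 4 arrays, and Krt7, Epcam and Cdh1 were above 12 on each. The basal keratin Krt14 (-1.68, adjusted p = 0.669, limma) and Krt19 (-1.14, adjusted p = 0.882, limma) were lower in shMCT-1 and the tight junction gene Cldn7, the dimmest of the 8 at 5.15 to 6.93, was higher (1.66, adjusted p = 0.669, limma). These 3 had an unadjusted p under 0.05 and groups that did not overlap, and their part in the results was not tested. Leukocyte, fibroblast and endothelial markers were dim, with 8 of 9, 5 of 6 and 6 of 6 measured markers under 5 on every array. The summed linear level of the leukocyte markers was 151 and 108 in NC and 128 and 104 in shMCT-1. Csf1r, the brightest of them, was at 6.07 and 4.61 in NC and at 5.27 and 4.47 in shMCT-1. NC replicate 1 stood apart from the other 3 arrays in interferon-stimulated genes. Its level was above each other array for 23 of 23 of them, and it exceeded the mean of the others by a median of 2.60 log2 units. The members are therefore given against each NC array singly as well as for the group.

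Across the 30 members, no difference between the groups passed the test. With limma over all 65956 rows, 0 members had an adjusted p under 0.05, as did 0.0% of all genes, and 1 member, Cth, had an unadjusted p under 0.05 against 5.59% of all genes. The median log2 difference, shMCT-1 minus NC, was -0.038, beside 0.014 over all genes, with 12 members higher and 18 lower. In 8 members the 2 groups did not overlap, 4 higher and 4 lower. Groups did not overlap in 34.9% of all genes (19.0% higher and 16.0% lower), so the count does not set the members apart. Where the members differed from the rest was in their levels on the 2 control arrays. This is a description, since the members were chosen with earlier results of these data known. NC replicate 2 was the highest of the 4 arrays in 1 of 30 members, against 5637 of 30142 genes. NC replicate 1 was the highest of the 4 arrays in 21 of 30 members, against 26.3% of all genes, and in 28 of 30 it lay above NC replicate 2, against 48.5%.

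**Figure D1:**
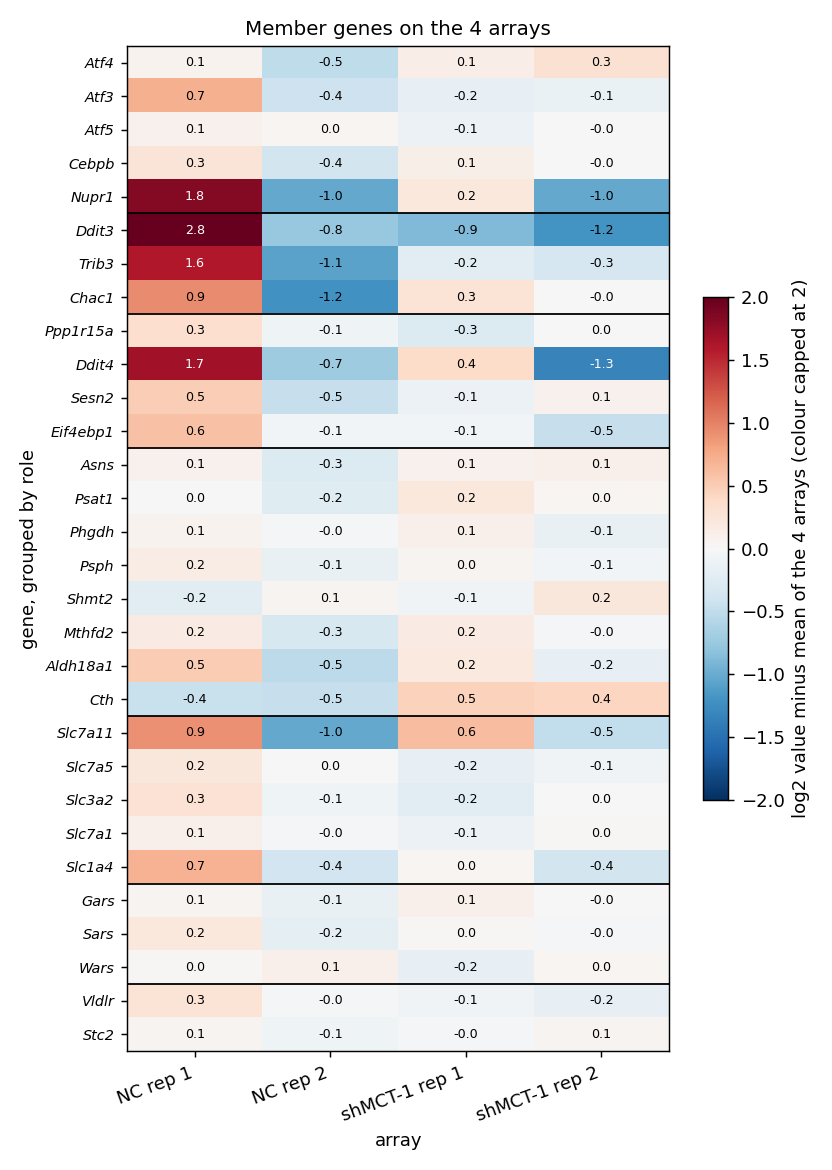
Heat map of the 30 measured members (rows, grouped by role) on the 4 arrays (columns). Each cell gives the log2 value minus the gene's mean over the 4 arrays. NC replicate 1 is the highest array in 21 rows, while Cth is the row in which both shMCT-1 arrays stand clearly above both NC arrays.

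Measured against each control in turn, the direction depended on the control. Both shMCT-1 arrays were below NC replicate 1 in 21 of 30 members, where 32.3% of all genes were, and above it in 5, where 38.2% were. Both were above NC replicate 2 in 17 of 30, where 32.8% of all genes were, and below it in 5, where 28.6% were. These counts share the shMCT-1 arrays and are not independent of each other. With a mean difference of at least 1.5-fold, 9 members were below NC replicate 1 (3.82% of all genes) and 5 were above NC replicate 2 (0.673% of all genes). The 9 were Ddit3, Nupr1, Ddit4, Trib3, Slc1a4, Atf3, Eif4ebp1, Slc7a11 and Chac1. The 5 were Chac1, Slc7a11, Cth, Trib3 and Atf4. Chac1, Trib3 and Slc7a11 were in both sets, so their shMCT-1 levels lay between the 2 control arrays. A further background, genes with a mean of at least 7, was chosen after seeing the data. The mean was taken over all 4 arrays, so this filter used the values compared. Ddit3 was above 7 only on NC replicate 1 and Cth only on the shMCT-1 arrays. The counts that follow were thus partly set by the filter. Both shMCT-1 arrays were above NC replicate 2 in 14 of 24 members against 27.1% of genes. They were below NC replicate 1 in 15 of 24 against 34.0%. With a mean difference of at least 1.5-fold, the counts were 4 of 24 above NC replicate 2 (0.814% of those genes) and 8 of 24 below NC replicate 1 (7.12%). At this level the groups did not overlap in 6 of 24 members against 39.6% of genes, and NC replicate 1 was the highest array in 15 of 24 against 27.2% and above NC replicate 2 in 22 of 24 against 39.4%. Over these 24 members, replicate 1 minus replicate 2 had a signed median of 0.12 in shMCT-1 and 0.45 in NC. Opposite signs cancel in such a median, so it does not give the size of the spread. Of the 2 shMCT-1 arrays, replicate 1 was the higher in 18 of 30 members against 52.9% of all genes. At a mean of at least 7 it was the higher in 16 of 24 against 34.3%.

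**Figure D2:**
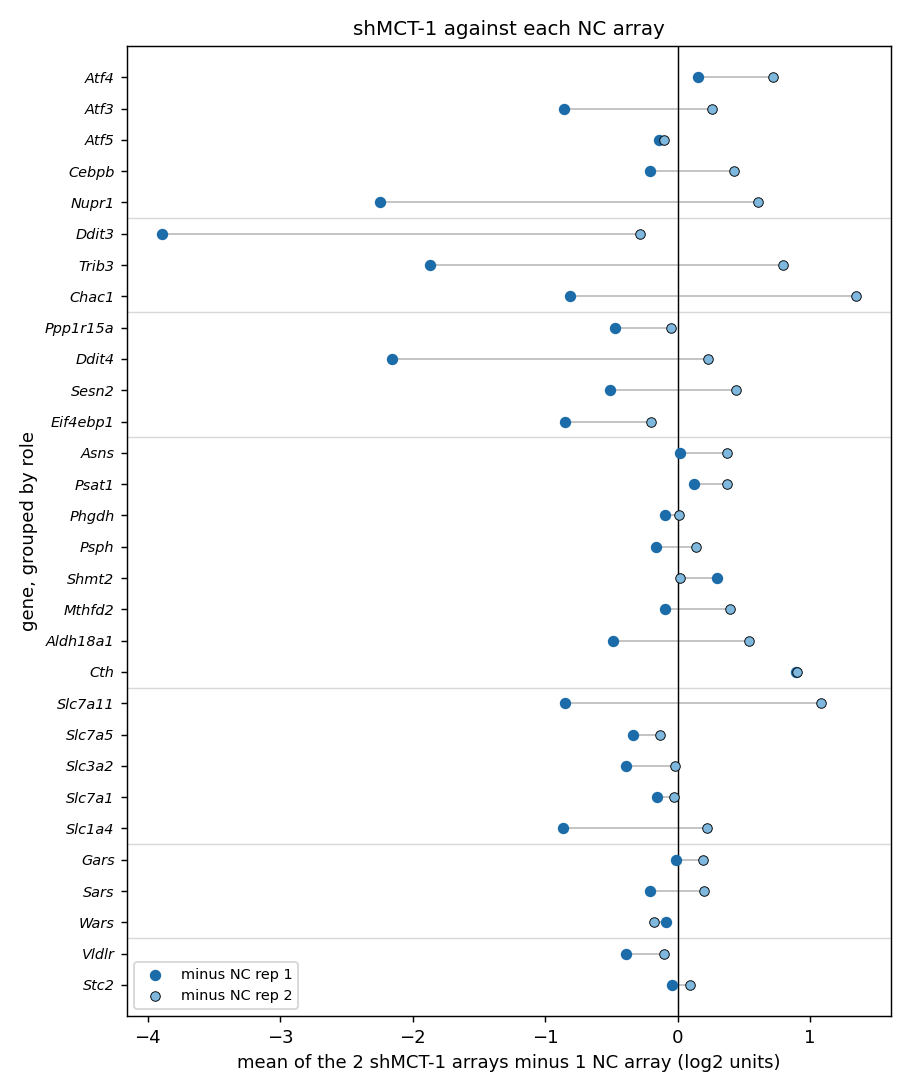
Mean of the 2 shMCT-1 arrays minus NC replicate 1 (dark points) and minus NC replicate 2 (light points) for each member, in log2 units, grouped by role. A long grey bar marks a gene on which the 2 controls disagreed: it spans from -3.89 to -0.28 for Ddit3 and from -0.81 to 1.35 for Chac1, while both points of Cth lie together at 0.89 and 0.90.

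Atf4, the factor at the head of the response, was at 9.94 and 9.37 on NC replicates 1 and 2 and at 10.00 and 10.18 on shMCT-1 replicates 1 and 2. Both shMCT-1 arrays were above both NC arrays, though shMCT-1 replicate 1 exceeded NC replicate 1 by only 0.062. The log2 difference was 0.44 (SE 0.219, 95% interval -0.14 to 1.01, adjusted p = 0.894, limma), which is smaller than the 0.57 between the 2 NC arrays. Against NC replicate 2 alone it was 0.72 and against NC replicate 1 alone 0.15. Atf4 was 1 of the 9 members in which NC replicate 1 was not the highest array.

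The stress genes Ddit3, Trib3 and Chac1 differed between the controls by 3.61, 2.67 and 2.16, and among the members Nupr1 (2.85) and Ddit4 (2.39) did so by a like amount. Ddit3 encodes CHOP, a pro-apoptotic transcription factor. It was at 10.39 and 6.78 on NC replicates 1 and 2 and at 6.65 and 6.34 on the shMCT-1 arrays. The groups did not overlap, but NC replicate 2 lay 0.13 above the nearer shMCT-1 array while NC replicate 1 lay 3.61 above NC replicate 2. The log2 difference was -2.09 (SE 1.18, 95% interval -5.19 to 1.01, adjusted p = 0.8975, limma), of which -0.28 was left without NC replicate 1. The other row of Ddit3 gave 9.91, 6.81, 6.73 and 6.46 in the same order, so both rows placed the 4 arrays alike.

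Trib3, a pseudokinase induced by CHOP and ATF4 that restrains AKT, was at 8.49 and 5.82 in NC and at 6.68 and 6.55 in shMCT-1. Chac1, which breaks down glutathione, was at 8.30 and 6.14 in NC and at 7.63 and 7.34 in shMCT-1. For both genes the shMCT-1 arrays agreed closely with each other and fell between the 2 NC arrays. The group differences were accordingly small for their errors, at -0.54 for Trib3 (SE 0.875, adjusted p = 0.968, limma) and 0.27 for Chac1 (SE 0.715, adjusted p = 0.986, limma). Against NC replicate 2 alone, Chac1 was 1.35 and Trib3 0.80 higher, with Ddit3 0.28 lower. Against NC replicate 1 alone, all 3 were lower, with a median of -1.87. The trio therefore did not rise as 1 unit against NC replicate 2, since Ddit3 was not higher there. Its -0.28 is smaller than the 0.31 between the 2 shMCT-1 arrays, so an opposite direction is not shown.

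**Figure D3:**
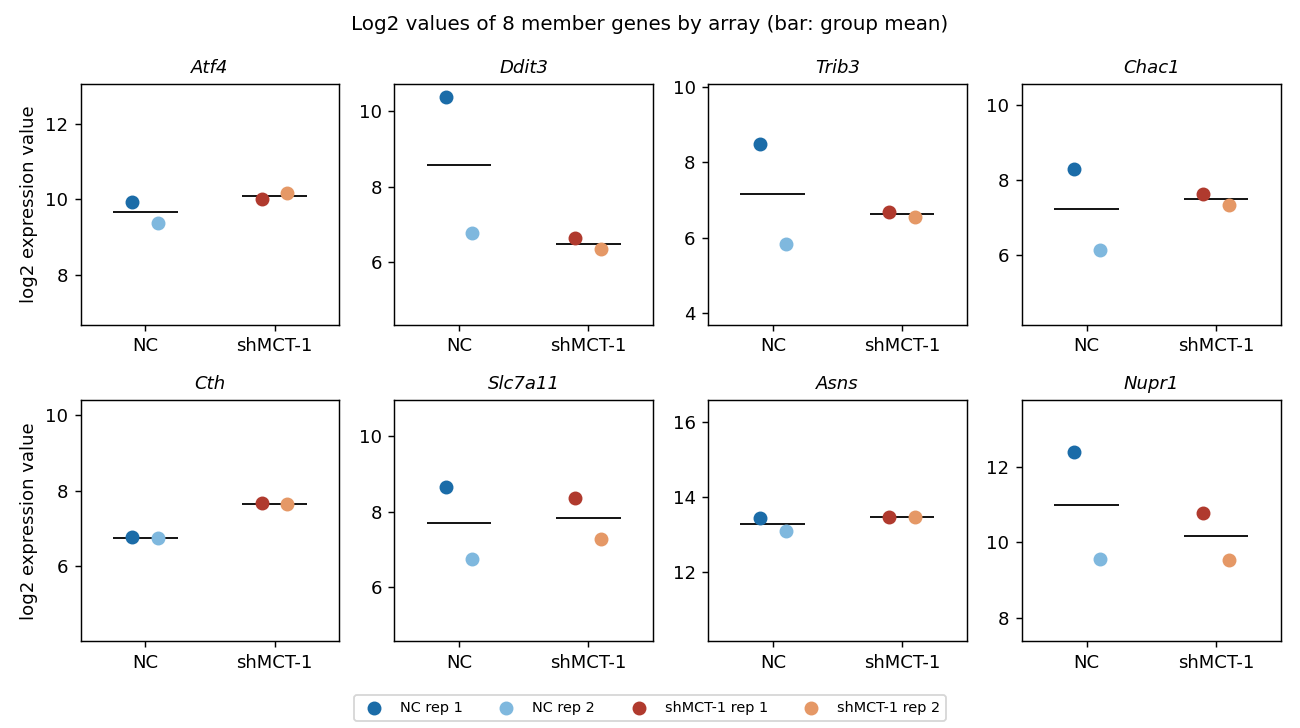
Log2 values of 8 members by array, with NC on the left and shMCT-1 on the right of each panel and a bar at each group mean; every panel spans the same number of log2 units. The NC points are far apart for Ddit3, Trib3, Chac1, Slc7a11 and Nupr1, and close together for Cth.

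Among the other regulators, Nupr1, a small stress-induced chromatin protein, had the widest spread. It was at 12.41 and 9.56 in NC and at 10.79 and 9.55 in shMCT-1, so replicate 1 was the higher array in both groups. Its log2 difference of -0.82 had an SE of 1.02. Atf3, a repressor of the ATF/CREB family induced by ATF4, was at 8.24 and 7.12 in NC and at 7.37 and 7.39 in shMCT-1, again with both shMCT-1 arrays between the controls. Cebpb, the C/EBP partner of ATF4, followed the same order with 7.83 and 7.20 in NC against 7.69 and 7.56. Atf5, a related factor, was nearly level, from 5.64 to 5.83 over the 4 arrays.

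The members that feed back on translation and on mTORC1 all had lower group means, by -0.033 to -0.97, and in each NC replicate 1 was the highest array. Ddit4 (REDD1), an inhibitor of mTORC1, was at 14.11 and 11.73 in NC and at 12.81 and 11.10 in shMCT-1. Like Nupr1, it was higher on replicate 1 in both groups, and its difference of -0.97 (SE 0.962) did not exceed that spread. Eif4ebp1, which encodes the cap-binding repressor 4E-BP1, was at 12.26 and 11.61 in NC and at 11.61 and 11.21 in shMCT-1, a difference of -0.53 (SE 0.269, adjusted p = 0.894, limma). It was -0.20 without NC replicate 1 and -0.85 without NC replicate 2. Sesn2, a leucine sensor that restrains mTORC1, was at 6.88 and 5.93 against 6.28 and 6.47. Ppp1r15a (GADD34), the subunit that directs dephosphorylation of eIF2alpha, ranged from 4.22 to 4.83 and was 0.26 lower in shMCT-1.

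The enzymes of amino acid and one-carbon metabolism included the gene whose difference was much larger than the spread in either group. Cth, the gamma-lyase that makes cysteine from cystathionine in transsulfuration, was at 6.76 and 6.75 in NC and at 7.67 and 7.64 in shMCT-1. The arrays of each group almost coincided, with means of 6.76 ± 0.0098 and 7.65 ± 0.017 (SD, n = 2 each), and the groups stood well apart. The log2 difference was 0.90, or 1.86-fold (SE 0.102, 95% interval 0.63 to 1.16, adjusted p = 0.882 over all rows, limma), and it stayed between 0.89 and 0.91 when any 1 array was left out. Cth and Ddit3 were the 2 members with groups that did not overlap and at least 1.5-fold between means, where 1.7% of all genes did so. Unlike Ddit3, Cth was the same against both controls. Cbs, the enzyme before Cth in the same pathway, was dim on all arrays, from 3.27 to 3.38.

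The other 7 enzymes differed less. Psat1, the aminotransferase of serine synthesis, was at 13.11 and 12.86 in NC and at 13.33 and 13.15 in shMCT-1, a difference of 0.25 (SE 0.143, adjusted p = 0.8975, limma). Asns, the asparagine synthetase and a standard readout of ATF4, was at 13.45 and 13.09 in NC and at 13.46 and 13.48 in shMCT-1. Both had groups that did not overlap, with shMCT-1 higher, but NC replicate 1 came within 0.034 and 0.011 of the nearer shMCT-1 array. Aldh18a1, which starts proline synthesis, had the widest range of the enzymes, with 12.27 and 11.24 in NC against 11.96 and 11.61. Phgdh and Psph, the first and last enzymes of serine synthesis, and Shmt2 and Mthfd2, of mitochondrial folate metabolism, had differences from -0.042 to 0.16. Taken over the 8 enzymes, the median difference was -0.038 against NC replicate 1 and 0.38 against NC replicate 2. All 8 means were above NC replicate 2, as were 15949 of 30142 over all genes. For Phgdh and Shmt2 this excess was only 0.011 and 0.021, with NC replicate 2 between the shMCT-1 arrays.

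Of the 5 amino acid transporters, 4 had lower and 1 a higher group mean, and both shMCT-1 arrays were below NC replicate 1 in all 5. Slc7a11 was at 8.66 and 6.73 in NC and at 8.37 and 7.26 in shMCT-1, with replicate 1 high in both groups and a difference of 0.12 (SE 0.733). Slc1a4, a carrier of small neutral amino acids, was at 9.02 and 7.93 in NC and at 8.36 and 7.95 in shMCT-1, a difference of -0.32 (SE 0.392). Slc7a5 and Slc3a2 form the exchanger of large neutral amino acids, LAT1 with its heavy chain 4F2hc. Slc7a5 was at 14.60 and 14.39 in NC and at 14.21 and 14.31 in shMCT-1, which put it among the 4 lower genes whose groups did not overlap (-0.23, SE 0.126). Slc3a2 and the arginine carrier Slc7a1 differed by -0.20 and -0.091 with overlapping groups. The median over the 5 was -0.39 against NC replicate 1 and -0.017 against NC replicate 2.

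The tRNA synthetases and the remaining targets were close to level. Gars, which charges glycine, was at 15.02 and 14.82 in NC and at 15.06 and 14.95 in shMCT-1. Wars, the tryptophan enzyme, which interferon gamma also induces, was at 10.32 and 10.41 in NC and at 10.13 and 10.33 in shMCT-1. Sars, for serine, differed by -0.0029. Vldlr, a lipoprotein receptor, was dim, at 3.87 and 3.58 in NC and at 3.52 and 3.43 in shMCT-1, where differences may be compressed. Stc2, a secreted glycoprotein induced by ATF4, was at 5.58 and 5.44 in NC and at 5.49 and 5.58 in shMCT-1.

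The level on NC replicate 1 was also read by role, as a description, since a difference between roles was not tested. Its excess over the mean of the other 3 arrays had a median of 2.14 for Ddit3, Trib3 and Chac1, from 1.26 to 3.80. It was 0.72 for the 4 feedback genes, 0.38 for the 5 transporters, 0.35 for the 5 transcription regulators, 0.10 for the 8 enzymes and 0.077 for the 3 synthetases, beside -0.013 over all genes. Single metabolic genes reached the level of Chac1 (1.26), with 1.21 for Slc7a11 and, outside the members, 1.45 for the glycine carrier Slc6a9 and 1.36 for the aminotransferase Gpt2. In 4 members, Ddit3, Nupr1, Ddit4 and Trib3, NC replicate 1 was at least 1 log2 unit above each other array, which held for 0.471% of all genes. The 9 genes with the motif letters in the window searched had a median excess of 0.94 and the 17 without them 0.23. However, the group without them contains Ddit3 at 3.80 and Ddit4 at 2.23. The group with the letters contains Gars at 0.077 and Asns at 0.11. This is a description of the list and was not tested. Interferon-stimulated genes moved with the same array, with 23 of 23 higher there and a summed linear level of 24939 on it against 2795 on NC replicate 2 and 3249 and 1893 on shMCT-1. Csf1r among the leukocyte markers (6.07 against 4.47 to 5.27) and Postn among the fibroblast markers (7.02 against 5.99 to 6.19) were also highest there. Their lists did not follow, since NC replicate 1 was the highest array in 2 of 9 leukocyte and 2 of 6 fibroblast markers. The median excess of these lists was 0.055 and -0.0006. In the endothelial list NC replicate 1 was the highest array in 4 of 6 markers, with a median excess of 0.064 and at most 0.31. The part of the interferon-stimulated and marker genes in the results for the stress genes was not tested. A change in a share of the cells cannot be told apart from a change per cell in RNA from whole cultures.

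**Figure D4:**
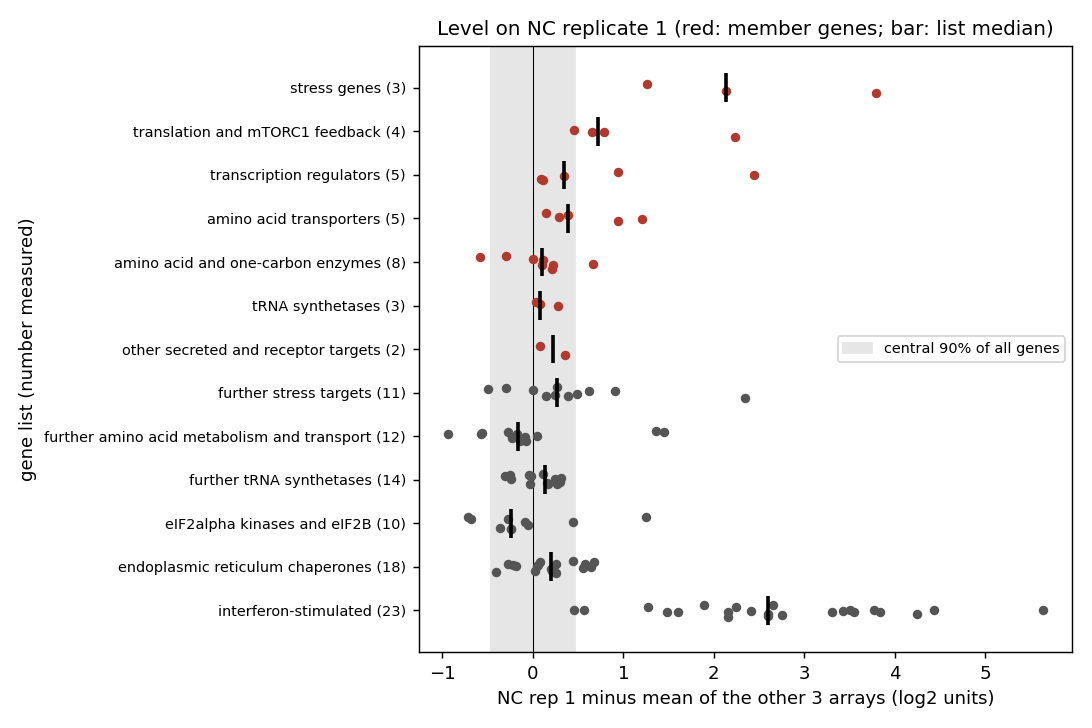
NC replicate 1 minus the mean of the other 3 arrays, in log2 units, for each gene of the member groups (red) and of other lists (grey), with a bar at each list median and a band over the central 90% of all genes, from -0.47 to 0.47. The 3 stress genes lie beyond the band at 1.26 or more, the enzymes lie mostly inside it, and the interferon-stimulated genes have a median of 2.60.

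Other genes of the pathway were read from 4 lists with 51 genes, of which 47 were measured. With limma, 0 passed after adjustment and 2 had an unadjusted p under 0.05, beside 5.59% of all genes. Those 2 were the glutamine and neutral amino acid carriers Slc38a1 and Slc38a2. Slc38a2, the amino acid carrier that starvation induces through ATF4, was at 13.68 and 13.44 in NC and at 14.16 and 13.97 in shMCT-1, a difference of 0.50 (SE 0.141, adjusted p = 0.882, limma). Slc38a1 was at 12.31 and 12.65 in NC and at 12.82 and 13.16 in shMCT-1 (0.51, SE 0.186). In both, the shMCT-1 arrays were above both NC arrays. Over the 47 genes, groups did not overlap in 16, against 34.9% of all genes, so the lists as a whole did not stand apart. By list this held for 2 of 10 eIF2alpha kinases and eIF2B subunits, 4 of 14 synthetases, 4 of 11 stress targets and 6 of 12 genes of amino acid metabolism and transport. In those 6 shMCT-1 was higher, but Slc7a3 and Bcat1 among them were dim, under 4 on every array.

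The sensors upstream gave no call either. Eif2ak2 encodes PKR, the kinase for double-stranded RNA and itself an interferon-stimulated gene, and it was at 10.90 and 9.49 in NC and at 10.02 and 9.42 in shMCT-1, highest on NC replicate 1 like the stress genes. Its difference was -0.47 (SE 0.510). Eif2ak3 (PERK), Eif2ak4 (GCN2) and Eif2ak1 (HRI) differed by -0.18, 0.12 and 0.11. Eif2b1, a subunit of the exchange factor eIF2B, was 0.30 higher (SE 0.329), with NC replicate 1 lowest at 9.52. Of 14 further tRNA synthetases, Tars had the largest positive difference at 0.24 (SE 0.121) and Kars the largest negative at -0.22 (SE 0.109), and the list median was -0.054. Among 11 further stress targets, Herpud1, an endoplasmic reticulum protein of protein degradation, was likewise far highest on NC replicate 1, at 12.34 and 9.98 in NC and at 10.12 and 9.87 in shMCT-1 (-1.16, SE 0.779). Its groups overlapped, unlike those of Ddit3. Sqstm1, the autophagy receptor p62, was at 14.43 and 13.62 in NC and at 13.59 and 13.34 in shMCT-1 (-0.56, SE 0.292).

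Chaperones and degradation factors of the endoplasmic reticulum, the unfolded protein genes nearest to this set, were compared as 18 measured genes. Their excess on NC replicate 1 had a median of 0.20 and at most 0.68. Herpud1, which belongs to the same compartment but was listed with the stress targets, had an excess of 2.35, so the upper limit depends on how the list was drawn. The main chaperone Hspa5 (BiP) was at 15.73 and 15.41 in NC and at 15.62 and 15.55 in shMCT-1. In 10 of the 18 the groups did not overlap, against 34.9% of all genes and 39.6% of genes with a mean of at least 7. In 8 of the 18 the groups did not overlap with shMCT-1 lower, against 16.0% of all genes and 1740 of 8480 genes at that mean. With limma 0 passed after adjustment and 2, Dnajc3 (-0.43) and Edem1 (-0.32), had an unadjusted p under 0.05, beside 5.59% of all genes.

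Leaving out 1 control array changed what the members showed. Each fit then took its error from the shMCT-1 arrays and the spread over all rows, and not from the difference between the NC arrays. The SDs in NC and shMCT-1 were 1.885 and 0.090 for Trib3, 1.52 and 0.20 for Chac1, 0.40 and 0.13 for Atf4. They were 2.55 and 0.22 for Ddit3, but 0.0098 and 0.017 for Cth. The counts that follow are thus a description, and they do not test genes whose NC spread was the wider. Without NC replicate 1, 4 members had an unadjusted p under 0.05 (2.51% of all genes), namely Chac1, Cth, Trib3 and Atf4, all higher in shMCT-1. Without NC replicate 2 there were 10 (9.19% of all genes), of which Cth was higher and 9 were lower. Among genes with a mean of at least 7 these counts were 3 of 24 (3.29% of those genes) and 8 of 24 (17.6%). In both fits, which assume that the lone NC array varies like the shMCT-1 group, 0 members passed after adjustment in limma, and the lowest adjusted p without NC replicate 2 was 0.179 for Ddit3. Of these genes, Cth alone had an unadjusted p under 0.05 in the same direction in both fits.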

How the data were processed

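The values were analysed as deposited by the authors: gene-level log2 values from 4 Affymetrix whole-transcript arrays, processed in Affymetrix Expression Console with RMA per the submitters' processing notes. Their versions, options and the build of the gene models were not found in the labels. Background correction, quantile normalization and probe summary in RMA compress differences of dim genes. The array medians ran from 3.68 to 3.73. Of 65956 rows, 30604 had 1 gene symbol in the platform annotation, 2146 had several and 33206 were not matched. Where a gene had several rows, the brightest by the mean of 4 arrays was used.

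All rows were fitted with limma (lmFit and eBayes, group as the only term), with Benjamini-Hochberg adjustment over all rows, a threshold of 0.05 and 2 residual degrees of freedom. The code was run on simulated independent values with the same spread in both groups. This checks the code and not the error rates in these data. The smallest p that an exact permutation test of 2 against 2 arrays can give is 0.333, so none was used. Named with values on every array were Atf4, Ddit3, Trib3, Chac1, the 2 members of each role with the largest differences and the members with groups apart by 1.5-fold; in the further lists, the 2 with the largest differences. Other genes were named after their values were seen. The members and lists were chosen with earlier results of these data known. Motif letters were searched on both strands of RefSeq promoters. The number of arrays limits the precision.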

Additional observations from a re-analysis of the deposited data

How the results depend on the processing

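No member passed the adjusted threshold in limma in the 11 alternatives run for the members, and no row in the 10 run for all rows, which leave out the choice of row for a gene. They covered the variance model, the normalization, the filter on dim rows, the choice of row for a gene, the replicate block and leaving out each array. With quantile normalization the difference changed sign for Aldh18a1 (-0.0096) and Stc2 (-0.045) and was 0 to 5 decimals for Gars, and it changed sign with median centring for Stc2 (-0.0021). Leaving out 1 array at a time left the sign of 14 members and turned that of 16. The cause was not tested. Of the 14, Cth alone moved by less than 1.5 times. The ranges of the other 13 were 0.15 to 0.72 for Atf4, -0.17 to -0.07 for Atf5, -3.89 to -0.28 for Ddit3, -0.47 to -0.052 for Ppp1r15a, -0.85 to -0.20 for Eif4ebp1, 0.019 to 0.38 for Asns, 0.12 to 0.37 for Psat1, 0.0092 to 0.31 for Shmt2, -0.34 to -0.13 for Slc7a5, -0.39 to -0.017 for Slc3a2, -0.16 to -0.024 for Slc7a1, -0.23 to -0.03 for Wars and -0.39 to -0.10 for Vldlr. The ranges of the 16 were -0.86 to 0.26 for Atf3, -0.21 to 0.42 for Cebpb, -2.24 to 0.61 for Nupr1, -1.87 to 0.80 for Trib3, -0.81 to 1.35 for Chac1, -2.16 to 0.23 for Ddit4, -0.51 to 0.45 for Sesn2, -0.17 to 0.082 for Phgdh, -0.16 to 0.14 for Psph, -0.094 to 0.40 for Mthfd2, -0.49 to 0.54 for Aldh18a1, -0.85 to 1.09 for Slc7a11, -0.86 to 0.22 for Slc1a4, -0.014 to 0.19 for Gars, -0.21 to 0.20 for Sars and -0.045 to 0.093 for Stc2. The medians ranged from -0.27 to 0.21 for all members, from -1.87 to 0.80 for the stress genes, from -0.038 to 0.38 for the enzymes and from -0.39 to -0.017 for the transporters. The replicate numbers are shared by the groups, and the correlation of same-numbered deviations was 0.42 over 65956 rows, but with 2 pairs they are not shown to pair the samples. With the replicate block, 4 of 30 members instead of 1 had an unadjusted p under 0.05 (Cth, Ddit4, Eif4ebp1 and Ddit3). Over all rows the count rose as well, to 7537 of 65956 from 3698, so a rise was not particular to the members. After adjustment 0 passed. With 2 arrays a group, the intervals of the stress genes span more than 3 log2 units.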
